A study of Mus musculus with 5 samples.

Results

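The genes described here encode the heat shock proteins and chaperonins, the proteins that help others to fold, refold, or be taken apart. They were chosen by symbol alone, as the genes named for the HSP90, HSP70 and HSP110, HSP60 and HSP10, and small heat shock protein families, the J-domain families Dnaja, Dnajb, and Dnajc, and the Cct subunits of the cytosolic chaperonin. The rule left out *Hspb3*, a small heat shock protein gene, and symbols that contain -ps. It reads symbols and no measured value, but it was written with earlier results of these data known. This gave 78 of the 19938 genes that had a probe set with 1 gene symbol, and 65 of the 78 were at or above the median of some array, as were 12632 genes in all.

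The study asked which genes set apart neurons of the primary somatosensory area (S1) that project to the primary motor area (M1) of the same hemisphere, above all those of layer 6b (L6b), the layer next to the white matter. RNA was hybridized to 5 arrays, 1 each for association neurons of L6b, L5, and L2/3 and for callosal neurons of L5 and L2/3. Association neurons had been labeled by Green RetroBeads injected into M1, and callosal neurons by the same tracer injected into S1 of the other hemisphere. All groups came from ICR mice at postnatal day 24 that had been electroporated in utero with pCAGGS-tdTomato in L2/3 neurons and had received the tracer at postnatal day 21, and no group went without the tracer. About 1000 labeled neurons per group were cut out one by one with a laser. How many mice stand behind each array is not stated in these sources.

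Every value below is a log2 signal minus the median of its own array, so that 0 is the median probe set and a difference of 1 is 2-fold. Values are given in the order association L6b, L5, and L2/3, then callosal L5 and L2/3. With 1 array per group there is no spread between replicates and no test, and calls follow a rule of size. A gene was called in an array if its signal there was at least 2-fold above, or at least 2-fold below, every other array. Probe sets differ in how well they hybridize, so a level is compared between arrays and not between genes. In a pool of captured cells, fewer cells of a type and less RNA per cell cannot be told apart.

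The arrays carried their labels with limits. All 7 genes of a list of L6b markers were highest in the L6b array, and 6 of them were called there, while 5 of 6 L2/3 markers were lowest there. The L5 arrays were less clearly marked. Of 5 L5 markers, *Rbp4* was called higher in association L5 and *Fezf2* was highest in callosal L5, then association L5, but *Bcl11b* and *Pcp4* were highest in L6b and *Etv1* in association L2/3. Glutamatergic neuron genes were lower in L6b than the mean of the other arrays by a list median of -0.67, and GABAergic genes by -0.91. The glutamatergic genes disagreed, since *Camk2a* and *Nrgn* were called lower in L6b while *Slc17a7* differed by -0.16 and *Neurod6* by 0.56. All 6 GABAergic genes were below that mean. *Sst* was called lower in L6b, and so was *Pvalb* at -1.38, against 2.26 to 4.57 in the other arrays. Signals of 9 myelin genes, on a linear scale where the array median is 1, summed to 62.7 in association L6b, 52.3 in L5 and 15.6 in L2/3 of the same projection, and 33.6 and 16.3 in the callosal L5 and L2/3 arrays, and *Mog* and *Opalin* were called higher in L6b and *Mag* in association L5 by the same rule. The part of these differences in the results below was not tested. Signals of 7 astrocyte genes summed to 34.9 in association L6b, 52.3 and 63.7 in L5 and L2/3 of the same projection, and 70.3 and 51.7 in the callosal L5 and L2/3 arrays. *Aldoc* was called lower in L6b (2.41, against 4.61 to 5.41), and *Gfap* was the only one of the 7 under the median of every array. Of the 6 astrocyte genes past the filter, 4 lay below the mean of the other arrays in L6b, with a median of -0.12. In L6b, 1 of them was lowest and 1 highest. The sums of 8 endothelial and mural genes ran between 9.20 and 11.0 over the arrays, with 5 of the 8 under the median of every array and *Cldn5* and *Rgs5* above it in all, and those of 7 microglia genes ran between 9.75 and 11.1.

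Chaperones of the HSP70 family bind stretches of unfolded protein in a cycle driven by ATP. J-domain proteins, also called HSP40s, bring the client and start ATP hydrolysis, and exchange factors such as the HSP110 proteins release the nucleotide. HSP90 takes over clients at a later stage, the ring-shaped chaperonins HSP60 with HSP10 in mitochondria and CCT in the cytosol enclose them, and small heat shock proteins hold unfolded proteins without ATP. Some members are made at all times, and others are induced by heat shock factor or by the response to unfolded protein in the endoplasmic reticulum (ER). In neurons, these proteins also uncoat synaptic vesicles and guard the proteins of the nerve terminal.

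On their brightest probe sets, *Hspa8*, *Hsp90aa1*, and *Dnaja1* of the cytosolic core were bright and close to even over the arrays. *Hspa8* encodes HSC70, the constitutive HSP70 that also strips clathrin from vesicles. Its signal was 6.89, 6.83, 6.94, 6.93, and 6.91 in association L6b, L5, L2/3 and callosal L5 and L2/3, a range of 0.11, the smallest of its family. *Hsp90aa1*, the inducible cytosolic HSP90, had 6.75, 6.73, 6.89, 6.80, and 6.90, a range of 0.17. *Dnaja1*, a J-domain partner of HSC70 in the cytosol, had 6.18, 5.91, 6.27, 6.24, and 6.28, with association L5 lowest by a small margin. Its second probe set was less even, at 3.47, 3.78, 3.81, 4.63, and 3.56, highest in callosal L5. Sequences nearly identical to these genes exist elsewhere in the genome, and their hybridization cannot be told apart here. The 2 further probe sets of *Hspa8* had ranges of 0.31 and 0.44, each with its highest value in L6b. *Hspa1a*, the classical heat-induced HSP70, lay close to the array median at 0.43, 0.54, 0.25, 0.56, and 0.35. *Hspb1*, another gene known for induction by heat, was just under the median at -0.19, -0.20, -0.27, -0.17, and -0.17, and did not pass the filter. *Dnajb1*, the inducible J-domain partner of HSP70, had 0.20, 0.93, 0.93, 1.58, and 0.64, lowest in L6b and highest in callosal L5. Neither *Hspa1a* nor *Dnajb1* was called in any array, against 11.9% of all genes, and *Hspb1* could not be called. These are too few genes to read anything from that.

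**Figure D1:**
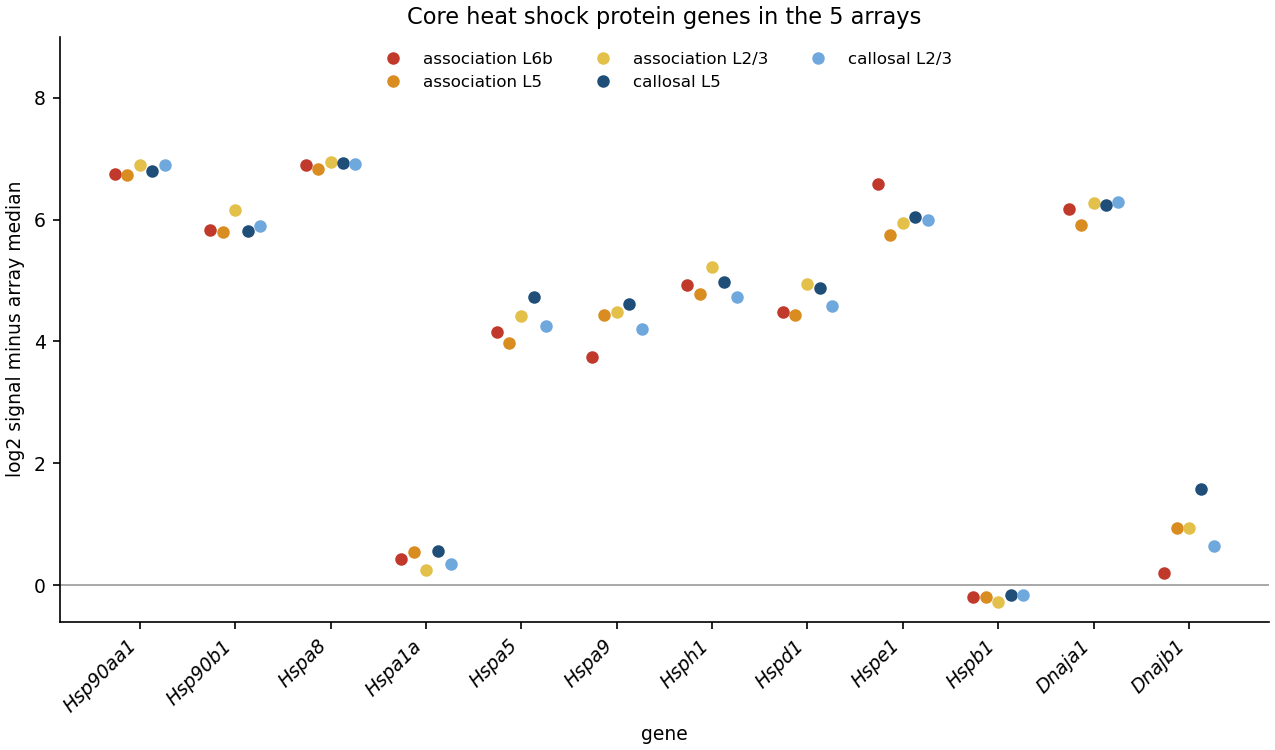
Log2 signal minus array median (vertical axis) of 12 core genes (horizontal axis), with 1 point per array in the order association L6b, L5, and L2/3, then callosal L5 and L2/3, and the grey line at the array median. The points of *Hspa8* span 0.11 and those of *Hsp90aa1* 0.17, while *Hspe1* lies highest and *Hspa9* lowest in L6b.

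The promoter of *Hspa1a* is shown because it holds the heat shock element, which heat shock factor binds and which was searched as GAANNTTC. These are the 150 bases before its start in RefSeq (GRCm38.p6, chr17:34972157-34972306, minus strand), 5′ to 3′ with the element in capitals.
Hspa1a: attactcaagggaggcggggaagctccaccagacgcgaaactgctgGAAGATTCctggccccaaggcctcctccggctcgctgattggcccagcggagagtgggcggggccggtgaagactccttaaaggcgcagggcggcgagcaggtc
*Hspa1a* and its neighbour *Hspa1b* share 247 of the 250 bases before their starts. A probe set that carries both symbols was left out, *Hspa1b* had none with its symbol alone, and whether the probe set of *Hspa1a* also took up *Hspa1b* RNA cannot be told here. *Hsp90ab1*, the constitutive cytosolic HSP90, likewise had no probe set of its own. The element was found on either strand in 14 of the 64 members with a RefSeq promoter (21.9%), against 9.04% of 27025 genes, in windows of 250 bases before to 50 after the start. They are *Hspa1a*, *Hsph1*, *Hspd1*, *Hspe1*, *Hspb1*, *Hspb6*, *Hspb8*, *Dnaja1*, *Dnaja4*, *Dnajb6*, *Dnajc27*, *Dnajc5g*, *Cct2*, and *Cct8l1*. A match is a description of letters and not a bound site. None of those that passed the filter was called in any array, against 11.9% of all genes, and the list is too short to read anything from that.

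Exchange factors of the HSP110 family were mixed. *Hspa4* had 4.06 in L6b, against 4.70, 4.94, 4.73, and 4.75 in the other 4 arrays. *Hspa4l* had 2.09 in L6b, against 3.16, 3.75, 2.78, and 3.34. Both were lowest in L6b. *Hsph1* had 4.92, 4.77, 5.22, 4.98, and 4.73 and spread by only 0.49. *Hspa14*, whose product works at the ribosome on new chains, differed most within the family. It had 0.41 in L6b, against 1.63 and 1.69 in association L5 and L2/3 and 2.42 and 3.04 in callosal L5 and L2/3, and was called lower in L6b. Its partner at the ribosome, *Dnajc2*, had 1.92, 2.27, 2.37, 1.94, and 2.30, with L6b lowest by 0.02 only.

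Other HSP70 genes varied in single arrays. *Hspa12a*, an atypical HSP70, was at 1.14 and 1.22 in association L6b and L5, against 2.28, 2.41, and 2.02 in association L2/3 and callosal L5 and L2/3. The 2 deep association arrays were thus below the other 3. *Hspa1l*, best known from testis, had 1.13 in callosal L2/3 and -0.80, -0.55, -0.04, and -0.46 in the association L6b, L5, L2/3 and callosal L5 arrays, and was called higher in callosal L2/3. That call rests on a signal close to the array median, in the only array through which the gene passed the filter. *Hspa2*, also known from testis, had 1.06, 0.64, 1.15, 1.12, and 1.64. Over the family, 10 of 12 members past the filter lay below the mean of the other 4 arrays in L6b, with a median of -0.44, against 62.8% of all genes and a median of -0.06. *Hspa12b* was under the median throughout.

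Chaperones of the ER lumen differed in how even they were. *Hspa5*, which encodes BiP, the HSP70 of the ER, had 4.16, 3.97, 4.41, 4.73, and 4.25. *Hsp90b1*, the HSP90 of the ER (GRP94), had 5.83, 5.79, 6.16, 5.81, and 5.89, and was closer to even. *Dnajc3*, a J-domain cochaperone of BiP also known as P58IPK, stood apart from both. It had 1.86 in L6b, against 3.21, 3.14, 3.11, and 2.94 in the other 4 arrays, which lay close together. It was called lower in L6b, and its 2 probe sets held identical values. Scaled by the 75th percentile of each array or by quantiles, its difference from the nearest array was -0.96 or -0.86, short of 2-fold.

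These 3 genes are shown because they alone, of the 64 members with a RefSeq promoter, matched the ER stress element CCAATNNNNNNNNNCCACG exactly. The element serves the response to unfolded protein, and near matches to it were not searched. It was found on either strand in 4.69% of the 64 member promoters, against 0.137% (37) of 27025. The 220 bases before each RefSeq start (GRCm38.p6) are given 5′ to 3′ on the strand of the gene, with elements in capitals. They lie at chr2:34771870-34772089 (*Hspa5*, plus strand), chr10:86705445-86705664 (*Hsp90b1*, minus strand, 2 elements, of which the one nearer the start runs on the other strand), and chr14:118937712-118937931 (*Dnajc3*, plus strand).
Hspa5: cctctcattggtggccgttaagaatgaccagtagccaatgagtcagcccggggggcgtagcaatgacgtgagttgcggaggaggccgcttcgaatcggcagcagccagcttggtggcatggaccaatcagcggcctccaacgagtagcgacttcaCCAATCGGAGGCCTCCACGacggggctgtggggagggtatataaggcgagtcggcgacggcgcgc
Hsp90b1: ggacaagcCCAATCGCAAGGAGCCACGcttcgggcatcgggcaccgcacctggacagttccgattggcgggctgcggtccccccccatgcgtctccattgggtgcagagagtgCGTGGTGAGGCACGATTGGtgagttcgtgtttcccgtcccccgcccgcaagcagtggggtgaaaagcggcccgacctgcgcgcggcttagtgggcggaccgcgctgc
Dnajc3: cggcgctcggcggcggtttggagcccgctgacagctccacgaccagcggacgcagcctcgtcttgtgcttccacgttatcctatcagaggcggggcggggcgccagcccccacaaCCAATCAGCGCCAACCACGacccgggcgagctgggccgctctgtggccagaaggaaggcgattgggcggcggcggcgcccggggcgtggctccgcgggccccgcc
With this element in common, *Hspa5* and *Hsp90b1* spanned 0.76 and 0.37 over the arrays and *Dnajc3* 1.35.

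Other J-domain proteins of the ER varied in different arrays. *Dnajb14*, an ER membrane protein with its J domain in the cytosol, had 2.35 in L6b, against 0.06, 0.24, 0.28, and 0.28 in the other 4 arrays. It was the only member called higher in L6b, 2.14 above the mean of the others. *Dnajb12*, its close relative, was highest in association L2/3 at 2.26, against 1.31, 1.16, 1.48, and 1.46 in association L6b and L5 and callosal L5 and L2/3. *Dnajc18*, of the same membrane type, had 0.50, 1.44, 2.80, 2.12, and 2.17, lowest in L6b, as *Dnajc3* was, and highest in association L2/3.

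*Dnajc10*, the ER reductase ERdj5, had 3.24 and 3.45 in association L6b and callosal L5, against 1.93, 2.47, and 2.17 in association L5 and L2/3 and callosal L2/3. *Dnajb9*, the BiP cochaperone ERdj4, had 2.21, 2.24, 3.04, 2.36, and 1.55, and *Dnajb11*, ERdj3, had 2.70, 2.46, 3.51, 3.02, and 3.02. Both were highest in association L2/3. *Hspa13*, an HSP70 of microsomes, was highest in L6b at 2.64, then callosal L2/3 at 1.84, against 0.76, 0.82, and 0.52 in association L5, association L2/3, and callosal L5. A list of 16 other genes held ER chaperones and folding enzymes but also *Xbp1*, *Atf4*, *Ddit3*, and *Herpud1*, which encode neither. Of the 16 genes, 15 passed the filter, with a median in L6b of -0.10 from the mean of the other arrays. In L6b, 0 were called in either direction, where 1.26% of all genes were called higher and 2.82% lower. With so few genes, nothing can be read from that. *Pdia6*, a disulfide isomerase, was highest in L6b at 3.01, against 0.94, 1.91, 1.88, and 2.13. *Creld2*, an ER protein, was called lower in association L5 at 0.33, against 1.59, 1.59, 1.65, and 1.89 in the other 4 arrays.

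Mitochondrial chaperones differed between arrays by less than 2-fold in most cases. *Hspd1* encodes HSP60 and *Hspe1* its lid HSP10, and the pair of genes lies head to head. *Hspd1* had 4.49, 4.43, 4.95, 4.88, and 4.58, and its second probe set 4.41, 4.37, 4.50, 4.80, and 4.47. *Hspe1* had 6.59 in L6b, against 5.74, 5.95, 6.04, and 6.00, and its second probe set likewise had 6.55 in L6b, against 5.85, 5.68, 5.88, and 5.65. L6b was thus the highest array on both probe sets of *Hspe1*, by less than 2-fold, while *Hspd1* was not. Their shared upstream stretch is shown because it serves both genes. It holds the 215 bases between the RefSeq start of *Hspe1* and 1 of the 2 RefSeq starts of *Hspd1* (GRCm38.p6, chr1:55087933-55088147). The bases are written 5′ to 3′ as for *Hspe1* on the plus strand, with the heat shock element in capitals.
Hspe1: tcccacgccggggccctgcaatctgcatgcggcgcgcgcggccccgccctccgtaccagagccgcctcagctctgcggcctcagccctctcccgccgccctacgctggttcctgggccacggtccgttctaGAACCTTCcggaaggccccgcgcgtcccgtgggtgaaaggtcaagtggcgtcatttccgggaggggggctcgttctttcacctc

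*Hspa9*, the mitochondrial HSP70 mortalin, was lowest in L6b at 3.74, against 4.43, 4.49, 4.62, and 4.21. Its J-domain partner *Dnaja3* was highest in association L5 at 2.65, against 1.41, 1.34, 1.74, and 1.76 in association L6b, association L2/3, callosal L5, and callosal L2/3. *Dnajc15*, a J-domain protein of the inner membrane, was highest in L6b at 5.02, against 2.95, 4.01, 4.15, and 3.41, while its relative *Dnajc19* at the import motor had 1.94, 2.10, 2.16, 1.96, and 2.61. These 4 genes of the import and folding machinery thus had their highest values in 4 different arrays. In a list of 7 further mitochondrial chaperones and proteases, 0 were called in L6b (1.26% of all genes higher and 2.82% lower), too short a list to read. *Grpel1*, the exchange factor of mortalin, was called higher in callosal L5 (2.88, against 1.01, 1.27, 1.42, and 1.10), and the protease gene *Clpp* was called higher in association L5 (4.20) and lower in callosal L2/3 (1.28), against 2.97, 3.06, and 2.95 in association L6b, association L2/3, and callosal L5.

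Of the cytosolic chaperonin CCT, which folds actin and tubulin, 7 of 9 genes with a Cct symbol passed the filter, and 6 of the 7 were below the mean of the other arrays in L6b (median -0.31), as were 62.8% of all genes. *Cct7* stood apart, with 1.86 in L6b, against 3.13, 3.35, 3.64, and 3.34, and was called lower there. *Cct6a* had 3.06 in L6b, against 3.68, 3.63, 3.60, and 3.79, and *Cct4* had 1.19, against 1.54, 1.56, 1.57, and 1.35. *Cct3* had 1.16, 1.83, 1.53, 2.52, and 1.63, also lowest in L6b and highest in callosal L5. *Cct2* had 3.97, 3.71, 4.26, 4.92, and 3.69, likewise highest in callosal L5. *Cct5* had 4.19, 4.07, 4.28, 4.25, and 4.54, and *Cct8* had 3.93 in L6b and lay between 3.62 in callosal L2/3 and 4.02 in association L2/3. Neither placed L6b at an end of its range. *Tcp1*, the subunit whose symbol does not follow the series, was highest in L6b at 4.68, against 4.27, 4.33, 4.30, and 4.21. Subunits of this one ring thus differed in which array was lowest, since *Cct3*, *Cct4*, *Cct6a*, and *Cct7* were lowest in L6b and *Tcp1* highest. *Cct6b* and *Cct8l1*, known from testis, were under the median in every array.

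Prefoldin hands new actin and tubulin to CCT. In a list of 10 CCT partners that includes *Tcp1*, the median in L6b was 0.20 above the mean of the other arrays. *Pfdn1* was called lower in L6b at 2.52, against 4.34, 3.96, 3.93, and 3.96. *Pdcl3*, a phosducin-like partner, was called lower in association L5 at 0.75, against 2.17, 2.22, 1.86, and 2.62 in association L6b, association L2/3, callosal L5, and callosal L2/3. The other prefoldin genes *Pfdn2*, *Pfdn4*, *Pfdn5*, *Pfdn6*, and *Vbp1* were not called in any array. Over all genes, 11.9% were called in some array.

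Small heat shock proteins had few members past the filter, 4 of 7. *Hspb2*, known from muscle, was called higher in association L5 at 3.28, against 1.24, 0.93, 1.24, and 1.03 in association L6b, association L2/3, callosal L5, and callosal L2/3. *Hspb11*, a subunit of intraflagellar transport, had 2.02, 1.24, 2.26, 3.54, and 2.89, lowest in association L5 and highest in callosal L5. *Hspb6* had 0.71, 0.67, 0.80, 0.77, and 0.80 and *Hspb9* 0.51, 0.70, 0.60, 0.57, and 0.48, and both were flat. *Hspb7* and *Hspb8* were below the median in all arrays. *Cryab*, the alpha B crystallin of the same protein family but with another name, had 4.36, 2.66, 1.35, 3.62, and 0.80. It was highest in L6b and lowest in callosal L2/3. The myelin sum was also highest in L6b and was low in both L2/3 arrays. In L5, *Cryab* was higher in callosal neurons, and the 2 summaries of the myelin genes differed. Their list median was slightly higher in callosal L5 (2.15, against 2.03). Their sum was higher in association L5 (52.3, against 33.6), where *Mag* had 3.96, against 0.64 in callosal L5. The part of myelin RNA in these differences was not tested.

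Of the J-domain proteins of the cytosol and nucleus, *Dnajb4*, a partner of HSP70, varied most. Its signal was 0.01, 1.58, and 3.37 in association L6b, L5, and L2/3 and 3.41 and 2.02 in callosal L5 and L2/3, and was called lower in L6b. *Dnajb5*, a relative of it, was called higher in association L2/3 at 3.23, against 2.16, 2.19, 1.89, and 2.22, a difference of 1.01 from the nearest array that was 0.98 on the values as deposited, short of the rule. *Dnajb6*, which keeps polyglutamine proteins from aggregating, had 0.23, -0.26, 0.28, 0.87, and 0.34. These 3 genes had their lowest values in 3 different arrays. *Dnaja2* had 4.03, 4.34, 4.40, 4.39, and 4.37, and *Dnaja4* had 1.12, 1.15, 1.21, 1.18, and 1.54. *Dnajb8* had 0.51, 0.77, 0.59, 0.63, and 0.56, the smallest range of the Dnajb genes, while *Dnajb3* had -0.70, 1.09, -0.46, 1.46, and 0.13, above the median in both L5 arrays and in callosal L2/3. *Dnajb2*, *Dnajb7*, and *Dnajb13* did not reach the median in any array.

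J-domain proteins of vesicles and endosomes included the flattest and the most variable of the Dnajc genes. *Dnajc5*, the cysteine string protein of synaptic vesicles, had 3.02, 2.98, 3.11, 3.08, and 3.08, a range of 0.13. *Dnajc6*, the neuronal auxilin that brings HSC70 to clathrin coats, had 2.87, 2.92, 2.98, 3.29, and 2.89. *Dnajc13*, an endosomal protein also known as RME-8, had 1.90, 2.32, and 5.88 in association L6b, L5, and L2/3 and 0.37 and 5.12 in callosal L5 and L2/3, a range of 5.51. It was called lower in callosal L5 on this probe set, the brightest of 15 that carry its symbol.

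The 15 probe sets of *Dnajc13* did not give 1 order of the arrays. Their ranges ran between 0.78 and 6.77. The highest array was association L2/3 in 7 of them, callosal L5 in 4, association L5 in 2, and callosal L2/3 in 2, and it was never L6b. The lowest was L6b in 6, callosal L2/3 in 5, association L5 in 3, and callosal L5 in 1. Their median was 0.23, 0.33, and 2.19 in association L6b, L5, and L2/3 and 3.07 and 0.30 in callosal L5 and L2/3. The call in callosal L5 was therefore that of 1 probe set, and where each probe set lies along the gene is not known here.

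**Figure D2:**
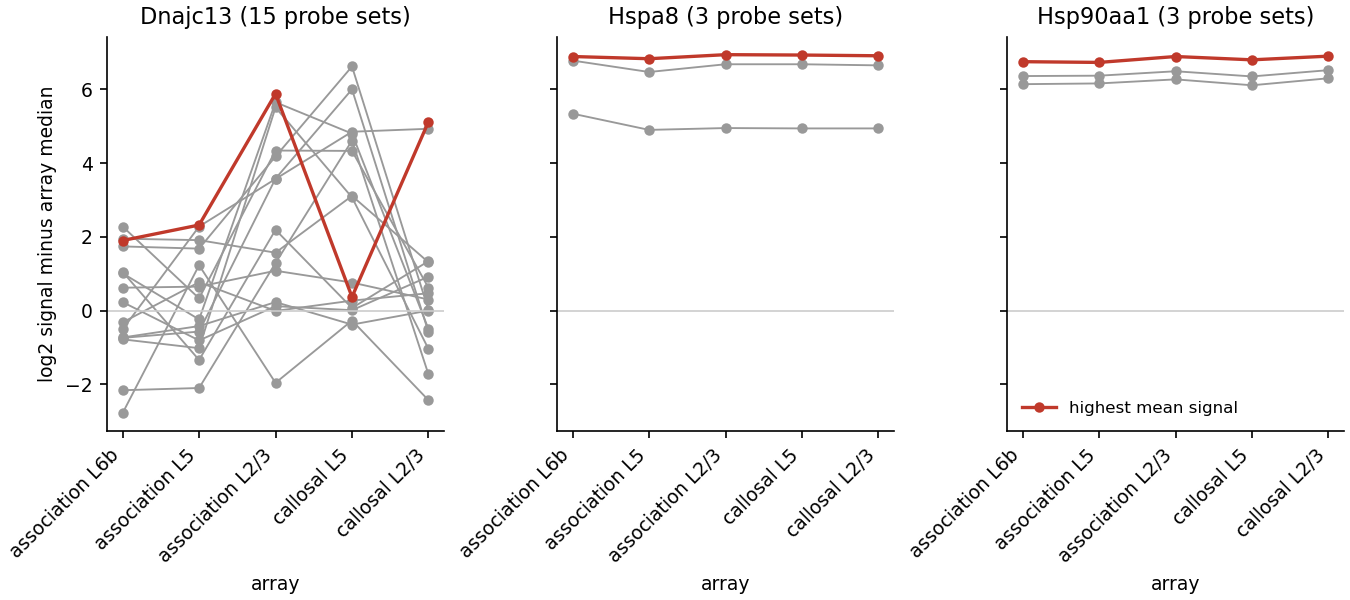
Log2 signal minus array median (vertical axis) in the 5 arrays (horizontal axis) of each probe set of *Dnajc13* (15), *Hspa8* (3), and *Hsp90aa1* (3), with a line joining the values of 1 probe set, red for the highest mean signal and grey for the others. The lines of *Dnajc13* cross each other, with callosal L5 lowest in only 1 of the 15, while those of *Hspa8* and *Hsp90aa1* run close to level.

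The remaining Dnajc genes gave 2 further calls. *Dnajc14*, which helps dopamine receptors leave the ER, was called higher in association L2/3 at 2.66, against 0.62, 1.36, 1.30, and 1.30. *Dnajc4* was called higher in callosal L2/3 at 2.11, against 0.91, 0.78, 0.48, and 0.78. *Dnajc24*, which takes part in making diphthamide on an elongation factor, had 0.41 in L6b and 0.49 in association L2/3, against 2.35, 1.63, and 1.25 in association L5 and callosal L5 and L2/3. *Dnajc17*, a nuclear protein, had 1.36, 1.59, 2.78, 1.99, and 1.07, highest in association L2/3. *Dnajc7*, a protein with tetratricopeptide repeats that binds HSP70 and HSP90, had 4.39, 4.36, 5.00, 4.45, and 4.45, and *Dnajc8*, of the spliceosome, had 4.87, 4.92, 4.96, 4.61, and 4.98. Neither spread over 2-fold. *Dnajc9*, a histone chaperone, had 1.25, 1.49, 2.51, 0.95, and 2.27, higher in both L2/3 arrays than in the other 3, and *Dnajc21*, which acts in ribosome assembly, had 2.15, 2.60, 3.44, 2.93, and 3.47, likewise higher in L2/3. *Dnajc1*, *Dnajc11*, *Dnajc12*, *Dnajc16*, *Dnajc25*, *Dnajc27*, and *Dnajc30* had ranges between 0.17 and 1.05. *Dnajc22*, *Dnajc28*, *Dnajc5b*, and *Dnajc5g* stayed under the median.

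Over the 65 members past the filter, L6b was the array with most calls of lower signal. The 4 members called lower there were *Cct7*, *Dnajb4*, *Dnajc3*, and *Hspa14*, with differences of -1.50, -2.58, -1.24, and -1.78 from the mean of the other arrays, against a background of 2.82% of all genes. The 1 called higher was *Dnajb14*, where 1.26% of all genes were. The median of the members was -0.22 in L6b, against -0.06 for all genes, and 55 of 65 lay below the mean of the other arrays (84.6%, against 62.8% of all genes). L6b was the lowest of the 5 arrays for 26 members (40.0%, against 30.5%) and the highest for 4 (6.15%, against 21.3%), which were *Dnajb14*, *Dnajc15*, *Hspa13*, and *Hspe1*. Subtracting medians turns equal deposited values into small differences, and 45 members had at least 2 equal values. On the values as deposited, L6b was lowest for 18 members (27.7%, against 17.4%) and highest for 5 (26.6% of all genes). Scaled by the 75th percentile of each array, 42 of 65 members lay below the mean of the other arrays in L6b (64.6%, against 37.7% of all genes).

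**Figure D3:**
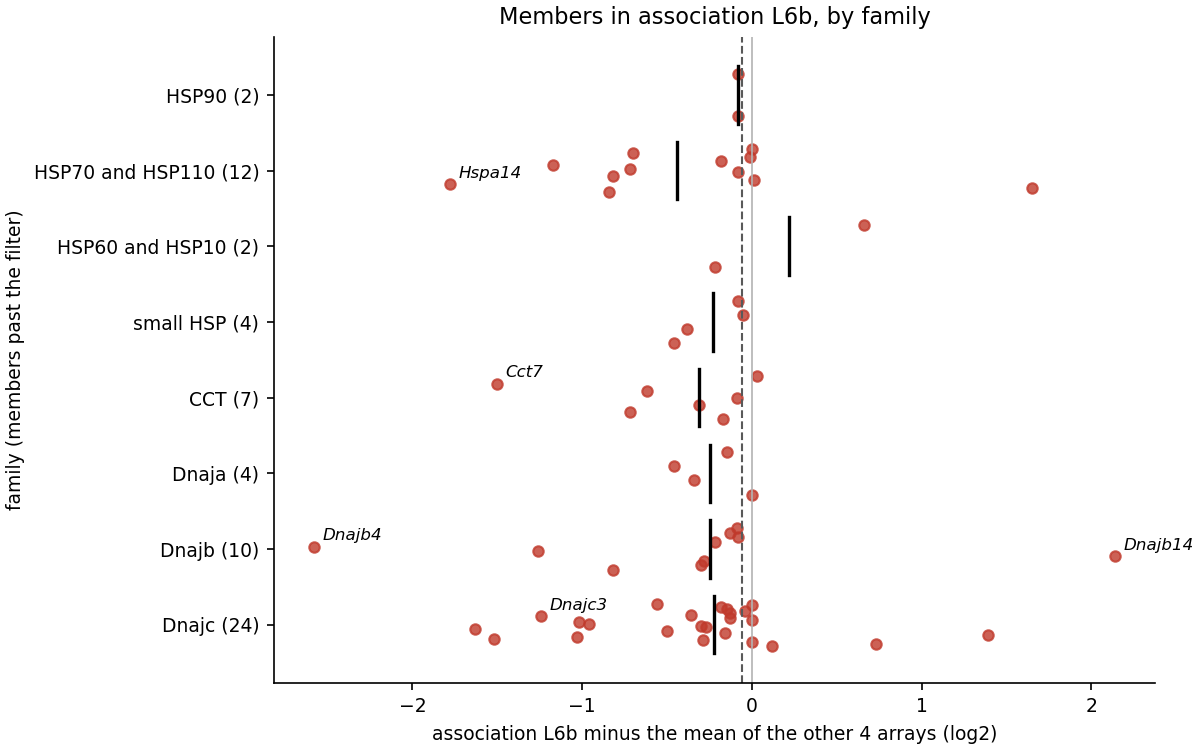
Difference in log2 between association L6b and the average of the remaining 4 arrays (horizontal axis) for each of the 65 members past the filter, by family (vertical axis), with a grey line at 0, a dashed line at the median of all genes (-0.06), and a black bar at the median of each family. In every family but HSP60 and HSP10 more members lie left of 0 than right of it, and *Dnajb14* lies farthest right.

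Few members were called in the other arrays. In association L5, *Hspb2* was called higher (background 1.31%) and 0 members lower (0.823%). In association L2/3, *Dnajb5* and *Dnajc14* were called higher (2.34%) and 0 lower (0.158%), and in callosal L5, 0 were called higher (1.31%) and *Dnajc13* lower (0.356%). In callosal L2/3, *Dnajc4* and *Hspa1l* were called higher (1.67%) and 0 lower (0.451%). *Hspa1l* had passed the filter through that array alone. In all, 11 of the 65 members were called in some array (16.9%), against 11.9% of all genes. Member medians in association L5, association L2/3, callosal L5, and callosal L2/3 were -0.13, 0.12, 0.06, and -0.01 from the mean of the other arrays, against -0.02, 0.02, 0.01, and 0.00 for all genes. Association L2/3 was the highest of the 5 arrays for 24 members (36.9%, against 27.4% of all genes). Its array median was the lowest of the 5 (5.71), so equal deposited values can count as highest there, as for *Dnajc5*. On the values as deposited, the member median in association L2/3 was 0.07, against -0.03 for all genes.

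Association neurons were then set against callosal neurons of the same layer. This comparison holds the layer, but the target, the tracer injection, and the array change together and cannot be told apart. In L2/3, 5 members were at least 2-fold higher in association neurons (background 5.07%), namely *Dnajc17* by 1.71 on the log2 scale, *Dnajb9* by 1.49, *Dnajc14* by 1.36, *Dnajb4* by 1.35, and *Dnajb5* by 1.01. All 5 encode J-domain proteins, which make up 38 of the 65 members past the filter. Lower in association neurons by at least 2-fold (3.48%) were *Dnajc4* with a difference of -1.63, *Hspa14* with -1.35, *Hspa1l* with -1.17, and *Hspa13* with -1.02. The last 3 are HSP70 genes, and *Hspa1l* passed the filter through callosal L2/3 alone. In L2/3, 39 of 65 members (60.0%) were higher in association than in callosal neurons, against 58.2% of all genes. They included 7 of 10 Dnajb and 17 of 24 Dnajc genes, but 1 of 4 Dnaja and 1 of 4 small heat shock protein genes. The array medians were 5.71 in association and 5.74 in callosal L2/3. Equal deposited values therefore count as higher in these numbers, as for *Dnajc5*.

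In L5, *Hspb2* and *Dnajc13* were at least 2-fold higher in association neurons (background 3.49%), with differences of 2.04 and 1.95. With the mean of all its probe sets, the difference of *Dnajc13* turned to -2.24. Lower by at least 2-fold (4.97%) were 7 members, *Hspb11* with -2.30, *Dnajb4* with -1.83, *Dnajc10* with -1.52, *Cct2* with -1.21, *Dnajc15* with -1.20, *Hspa12a* with -1.19, and *Dnajb6* with -1.13. In L5, 46 of 65 members (70.8%) were lower in association than in callosal neurons, against 62.9% of all genes. They included 10 of 12 HSP70 and HSP110, 6 of 7 Cct, and 8 of 10 Dnajb genes, but 13 of 24 Dnajc and 2 of 4 small heat shock protein genes. The array medians were 5.77 in association and 5.74 in callosal L5. Equal deposited values therefore count as lower in these numbers, as for *Hspa4* and *Cct4*. The median of the members was 0.07 in L2/3 and -0.10 in L5, against 0.03 and -0.03 for all genes. On the values as deposited it was 0.04 and -0.07, against 0.00 for all genes in both layers. *Dnajb4* was the 1 member that differed by at least 2-fold in opposite directions, higher in association neurons of L2/3 and lower in those of L5, as did 0.839% of all genes.

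**Figure D4:**
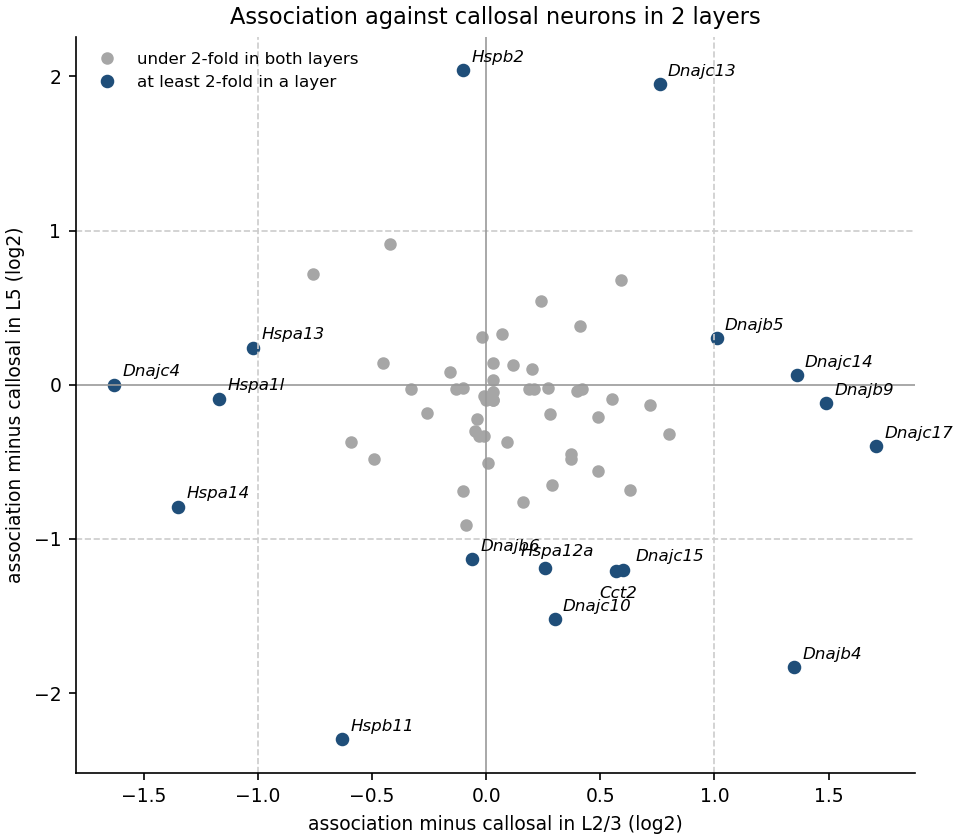
Association minus callosal neurons in L2/3 (horizontal axis) and in L5 (vertical axis), both in log2, for the 65 members past the filter, with dashed lines at 2-fold and named genes beyond them. *Dnajb4* lies at 1.35 and -1.83, and most members lie inside the dashed lines in both layers.

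In bins of mean signal, the median range of the members was above that of all genes at low and middle signal and below it at high signal. The range over the 5 arrays was under 2-fold for 32 members, and at least 4-fold for 11. The 15 members with a mean signal of at least 4 had a median range of 0.49, against 0.71 for the 753 genes at that level. The 18 between 2 and 4 had 1.35, against 1.13 for 2036 genes, and the 31 between 0 and 2 had 1.13, against 0.41 for 8513 genes. The bins are wide, and members were not matched to other genes by signal within them. These are descriptions of single arrays, and the spread of repeated arrays at each level is unknown.

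**Figure D5:**
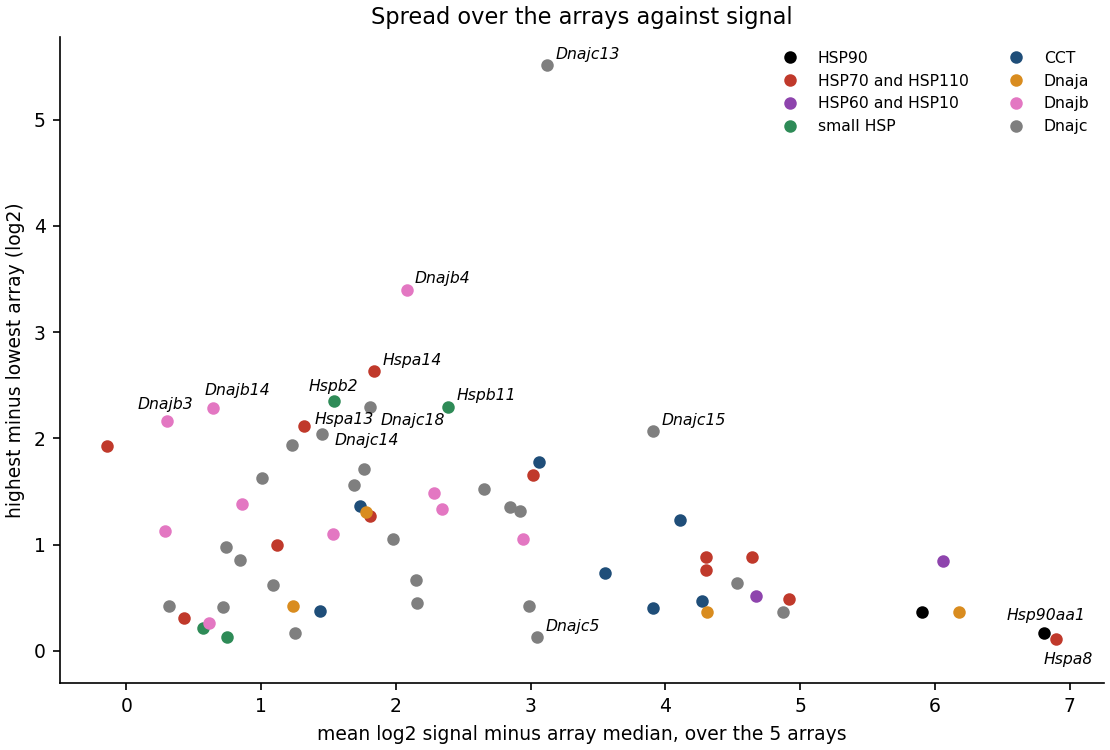
Highest minus lowest array in log2 (vertical axis) against mean log2 signal minus array median (horizontal axis) for the 65 members past the filter, colored by family. *Hspa8* and *Hsp90aa1* lie at high signal with ranges of 0.11 and 0.17, and *Dnajc13* has the largest range at 5.51.

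Co-chaperones that steer HSP70 and HSP90 were also compared with all genes in L6b. Of 20 such genes 19 passed the filter, 15 lay below the mean of the other arrays in L6b, 9 were lowest there and 4 highest, and the median was -0.13. Over all genes, 62.8% lay below that mean, 30.5% were lowest and 21.3% highest, and the median was -0.06. *Bag5*, an HSP70 exchange factor, was called lower in L6b at 2.35, against 3.76, 3.95, 3.79, and 3.95. *Sugt1*, an HSP90 cochaperone, was called lower there too, at 1.18, against 2.58, 2.37, 2.29, and 2.42. Over all genes, 2.82% were called lower in L6b. No co-chaperone was called higher in any array. *Stip1*, the adaptor HOP that joins HSP70 to HSP90, had 2.94 in L6b, against 3.91, 4.03, 4.44, and 3.94. *Fkbp4*, a prolyl isomerase bound to HSP90, had 1.40, against 2.04, 3.04, 2.68, and 2.51, and *Chordc1*, another HSP90 partner, had 1.29, against 2.19, 2.76, 2.92, and 2.33. These 3 were lowest in L6b but less than 2-fold from the nearest array. *Cdc37*, which brings kinases to HSP90, was flat at 2.26, 2.23, 2.33, 2.32, and 2.32.

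Of the heat shock factors, *Hsf2* had 1.34, 1.04, 1.43, 1.40, and 1.99, and *Hsf4* had 0.28, 0.31, 0.37, 0.34, and 0.26. *Hsf5* did not pass the filter, and *Hsf1* had no probe set with its symbol alone. Neither *Hsf2* nor *Hsf4* was called in any array, against 11.9% of all genes, and nothing can be read from so few.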

How the data were processed

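RNA of retrogradely labeled S1 neurons was amplified (NuGEN) and hybridized to 5 GeneChip Mouse Gene 1.0 ST arrays, 1 per group. The log2 signals of all probe sets stand in 1 table deposited by the authors, made with Affymetrix Expression Console. The software version and the summarization method are not stated in these sources, and the log2 scale was read from the values. The methods name a centering without saying of what, and the values of a gene are not centered in the table. Amplification of small RNA amounts and probe affinity both enter these signals.

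Of 35556 probe sets, 21789 have 1 symbol, 1621 several, and 12146 none. The 78 members had 101 probe sets, all members matched a RefSeq symbol, and 10 probe sets that name a member beside another gene were left out. The median of each array (5.71 to 5.80) was subtracted, and the probe set of highest mean signal was used for the 8 members with several. Genes that reached the array median anywhere were kept. Calls needed a 2-fold difference from each of the other 4 arrays. Correlations between arrays were 0.918 to 0.938 over all probe sets, and the number of arrays limits the precision. Promoters came from RefSeq (GRCm38.p6). Protein sequences were not analysed here.

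Genes named were those called, the 6 brightest members, the least and most variable of each family, a core set, those at least 2-fold opposite in the 2 layers, and all Cct genes, and from other chaperone lists those called. Others were named after their values were seen, to account for every member. The members and lists were chosen with earlier results of these data known. Alternatives were other scalings, filters, and probe set choices and leaving out each array. The steps were checked on simulated data. Python 3.11.15, numpy 2.4.6, and pandas 2.3.3 were used.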

Additional observations from a re-analysis of the deposited data

Results flagged for a closer look

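*Dnajb4* differed in opposite directions between association and callosal neurons in the 2 layers. In L2/3 its signal was 3.37 in association neurons and 2.02 in callosal neurons, a difference of 1.35. In L5 it was 1.58 in association neurons and 3.41 in callosal neurons, a difference of -1.83. With 1 array per group, the difference between the layers was not tested. Among all genes, 0.839% were at least 2-fold apart in opposite directions.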

How the results depend on the processing

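With 1 array per group, no value has a replicate, and differences near 2-fold crossed the rule under small changes of scale. Under quantile normalization *Hspa13* joined *Dnajb14*, so that 2 members were called higher in L6b, and the member median there was -0.07. It was -0.12 with the 75th percentile subtracted, where the median of all genes in L6b was 0.05 in place of -0.06. *Dnajb5* was lost on the values as deposited, with the 75th percentile subtracted, and under quantile normalization, which each left 1 member called higher in association L2/3. *Dnajc3* was lost under the last 2 of these, which left 3 members called lower in L6b. A filter at the 75th percentile removed *Hspa1l* and left 1 member called higher in callosal L2/3. With the mean of all probe sets of a gene, *Dnajc13* was no longer called, which left 0 members lower in callosal L5 and 1 higher in association than in callosal L5. Its difference turned to -2.24 between association and callosal neurons in L5, and to 1.66 between callosal L5 and the mean of the other arrays. Leaving out each other array in turn gave 1 to 2 members higher and 4 to 5 lower in L6b, 1 to 2 higher and 0 to 1 lower in association L5, 2 to 4 higher in association L2/3, 0 to 1 higher in callosal L5, and 2 to 3 higher in callosal L2/3. The range was widest for association L2/3, where *Dnajb4* and *Dnajc17* were also called without callosal L5 (differences from the nearest array of 1.35 and 1.19), and *Dnajc13* and *Dnajc9* without callosal L2/3 (3.56 and 1.02). In L6b, *Dnajc15* was also called higher without callosal L5 (1.01) and *Hspa13* without callosal L2/3 (1.82), and *Dnajc18* was also called lower without association L5 (-1.62) and *Hspa4l* without callosal L5 (-1.07). Association L5 gained *Dnajc24* as higher without callosal L5 (1.10), and *Hspb11* (-1.02, without L6b) and *Dnajc15* (-1.06, without callosal L2/3) as lower. Callosal L5 gained *Dnajb3*, *Dnajb4*, and *Hspb11* as higher without association L5 (1.33), association L2/3 (1.39), and callosal L2/3 (1.28). Callosal L2/3 gained *Hspa13*, *Dnajc13*, and *Hspa14* without association L6b (1.02), association L2/3 (2.80), and callosal L5 (1.35). No paired analysis was possible because the groups share only 1 replicate number, and a fit that pairs the arrays by layer was not run.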

Other observations

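Immediate early genes, which neurons switch on with activity and stress, were also read, since all mice had been injected and perfused. All 14 genes of the list passed the filter, and their median in L6b was 0.01 from the mean of the other arrays. *Egr2* was at least 2-fold higher in association L2/3 at 2.38, against 0.13, 0.58, 1.05, and 0.65 in association L6b, association L5, callosal L5, and callosal L2/3. *Jun* was at least 2-fold lower in callosal L2/3 at -0.04, against 1.59, 1.19, 1.04, and 1.58, and so was *Dusp1* at 0.28, against 1.56, 1.73, 1.70, and 1.93. Over all genes, 11.9% were called in some array. *Fos* stayed near the array median at 0.24, 0.41, 0.33, -0.08, and 0.38.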
